A study of Mus musculus with 19 samples.

Results

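A group of 8 receptor and adaptor genes makes up the set described here: the Trem family members Trem1, Trem2, Trem3, Treml2 and Treml4, the adaptor Tyrobp, and the formyl peptide receptors Fpr1 and Fpr2. They were chosen by name, with earlier results of these data known, and 8 of 8 have a row among the 50854 genes of the count table. The study sorted monocytes from the bone marrow of REP mice, in which separate fluorescent proteins report the chemokine receptors, and asked how cells that carry both CCR1 and CCR2 (CCR1/2+ve) differ from cells that carry CCR2 alone (CCR2+ve). RNA was sequenced in bulk from 19 libraries in 5 groups, with 4 of resting CCR2+ve, 4 of resting CCR1/2+ve, 4 of inflamed CCR2+ve, 3 of inflamed CCR1/2+ve and 4 labelled inflamed CCR1. Every mouse was female and 8 to 12 weeks old. Inflamed mice had an osmotic pump under the skin that infused IL-3, IL-6, GM-CSF and IFN-α for 7 d. The methods also describe pumps filled with vehicle. Their section on bone marrow of resting mice, used for monocyte isolation and transcriptomic analysis, names no pump. Whether the libraries labelled resting came from mice with a vehicle pump is not said outright, so the cytokines and the surgery cannot be told apart. The sort behind the inflamed CCR1 label is not described in the methods, which name only the CCR1/2 and CCR2 sorts. The labels do not say that the libraries of a group came from separate animals, so p values measure the spread between these samples, which may be technical.

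Receptors of the TREM family are immunoglobulin-like proteins on myeloid cells, and most of them have no signalling tail of their own. They pair with DAP12, the adaptor encoded by Tyrobp, which recruits the kinase Syk; TREM-1 amplifies inflammatory responses of neutrophils and monocytes, whereas TREM-2 binds lipids and lipoproteins and is known from macrophages, microglia and osteoclasts. Formyl peptide receptors are G protein-coupled receptors that guide phagocytes toward peptides of bacteria and mitochondria.

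The genes lie in 3 places. On chromosome 17 of GRCm38, Trem1 (ENSMUSG00000042265, chr17:48232768-48246924, + strand), Trem3 (ENSMUSG00000041754, chr17:48247777-48258841, + strand), Treml4 (ENSMUSG00000051682, chr17:48264295-48275360, + strand), Treml2 (ENSMUSG00000071068, chr17:48299498-48312533, + strand) and Trem2 (ENSMUSG00000023992, chr17:48346401-48354147, + strand) follow each other on 1 strand within 121.4 kb. Trem3 begins 853 bases after Trem1 ends. Fpr1 (ENSMUSG00000045551, chr17:17876471-17883940, - strand) and Fpr2 (ENSMUSG00000052270, chr17:17887824-17893952, + strand) stand head to head elsewhere on that chromosome, with 3884 bases between their starts. Tyrobp lies on chromosome 7 (ENSMUSG00000030579, chr7:30413760-30417585, + strand). No exon of the others is shared with another annotated gene, while Fpr3 on the same strand covers 3.70% of the exonic bases of Fpr2, and of the 50-base stretches of Fpr2 transcripts 31.5% occur in another annotated gene and 6.41% in another gene of the table. Reads of Fpr2 could therefore be lost or split in the counting, and Fpr3 had 1 read in all 19 libraries together.

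RefSeq promoter windows of GRCm38.p6, which run from 250 bases before to 50 after the start, covered 5 of the 8 members, and 4 are shown because these genes were called between the populations and Fpr1 and Fpr2 both fell with inflammation in CCR2+ve cells. Capitals mark matches, on either strand, to AGGAAGT (a core of PU.1 sites), TTNNGCAA (C/EBP), TGANTCA (AP-1) and TTCNNNGAA (STAT). The windows are Trem1 chr17:48232489-48232788, + strand, Treml4 chr17:48264045-48264344, + strand, Fpr1 chr17:17883890-17884189, - strand and Fpr2 chr17:17887574-17887873, + strand.
Trem1: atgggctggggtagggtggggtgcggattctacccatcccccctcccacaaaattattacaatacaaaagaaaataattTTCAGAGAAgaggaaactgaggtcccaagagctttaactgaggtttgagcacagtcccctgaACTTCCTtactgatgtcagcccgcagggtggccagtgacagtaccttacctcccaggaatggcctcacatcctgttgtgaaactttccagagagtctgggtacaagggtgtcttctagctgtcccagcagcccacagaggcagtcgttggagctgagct
Treml4: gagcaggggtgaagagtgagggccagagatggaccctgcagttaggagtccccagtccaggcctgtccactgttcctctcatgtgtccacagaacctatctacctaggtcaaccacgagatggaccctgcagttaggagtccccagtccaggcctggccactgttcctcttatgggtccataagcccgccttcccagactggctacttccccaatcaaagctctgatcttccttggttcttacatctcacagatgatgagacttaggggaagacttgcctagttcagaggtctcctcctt
Fpr1: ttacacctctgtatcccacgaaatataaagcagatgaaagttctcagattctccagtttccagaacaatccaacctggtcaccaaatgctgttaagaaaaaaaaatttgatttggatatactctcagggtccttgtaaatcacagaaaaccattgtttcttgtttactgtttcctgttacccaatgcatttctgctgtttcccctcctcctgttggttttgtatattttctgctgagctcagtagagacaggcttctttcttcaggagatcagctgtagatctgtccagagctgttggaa
Fpr2: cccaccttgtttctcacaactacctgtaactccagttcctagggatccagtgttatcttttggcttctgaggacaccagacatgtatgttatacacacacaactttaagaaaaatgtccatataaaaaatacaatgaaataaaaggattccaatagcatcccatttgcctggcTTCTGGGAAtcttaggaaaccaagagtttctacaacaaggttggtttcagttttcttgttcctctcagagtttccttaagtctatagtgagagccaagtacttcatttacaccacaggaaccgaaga
Trem1 held 1 match to the PU.1 letters, at −109 from the start, and 1 to the STAT letters, at −171, which did not overlap. The window of Fpr2 had 1 STAT match, at −77, and those of Fpr1 and Treml4 had 0 of any motif. In Trem2, not shown, 1 match to the AP-1 letters and 1 to the C/EBP letters were found. Of the 32851 promoters of the same length, 9.35% hold the PU.1 letters, 10.8% those of C/EBP, 7.81% those of AP-1 and 8.30% those of STAT. A match is a description of the letters and not a binding site.

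Between 22268658 and 30502009 reads were counted on genes per library. Levels are given as normalized read counts in CPM, scaled by edgeR's TMM factors over the 19 libraries, and as means ± SD. All 8 members passed the filter (a mean of 1 read or more over the 19 libraries) with 18652 genes in all, and the least counted, Fpr1, had 5988 reads. A gene was called higher or lower when its adjusted p was under 0.05 and its log2 fold change reached 1 in either direction. Counts at an unadjusted p below 0.05 are given without the share of all genes at that threshold, so they cannot be set against it. Comparisons share groups with one another, so their values are set side by side and are not independent. In bulk RNA, fewer cells with a transcript and less of it per cell cannot be told apart.

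Libraries labelled inflamed CCR1 stood apart from the rest and went against a monocyte label. Their Ccr2 was at 5.82 ± 2.56 CPM (n = 4) against 1251 ± 125 in inflamed CCR2+ve cells (n = 4), Csf1r, the receptor for M-CSF, at 17.7 ± 4.44 against 1504 ± 162, and Ccr1 itself, added after its values were seen, at 38.0 ± 4.6 against 209 ± 57.4. The neutrophil granule gene Ngp reached 86040 ± 12720 CPM and the azurophil granule protease Elane 24890 ± 1913, while the granulocyte surface gene Ly6g was at 14.4 ± 2.41. Of the 14 tested genes of a neutrophil list, 11 were called higher and 2 lower against inflamed CCR2+ve cells, beside 14.4% and 16.8% of all genes. Against inflamed CCR1/2+ve cells 9 were higher and 2 lower, beside 13.2% and 14.6%. Mmp8 of that list, named after its values were seen, was at 9.10 CPM against 1044 in inflamed CCR2+ve cells. Ly6c2 was retained at 1421 ± 48.5 CPM, against 1856 ± 407 in inflamed CCR2+ve cells. These libraries are called the CCR1-labelled libraries below, with no cell type name, and enter only the comparisons that name them.

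**Figure D1:**
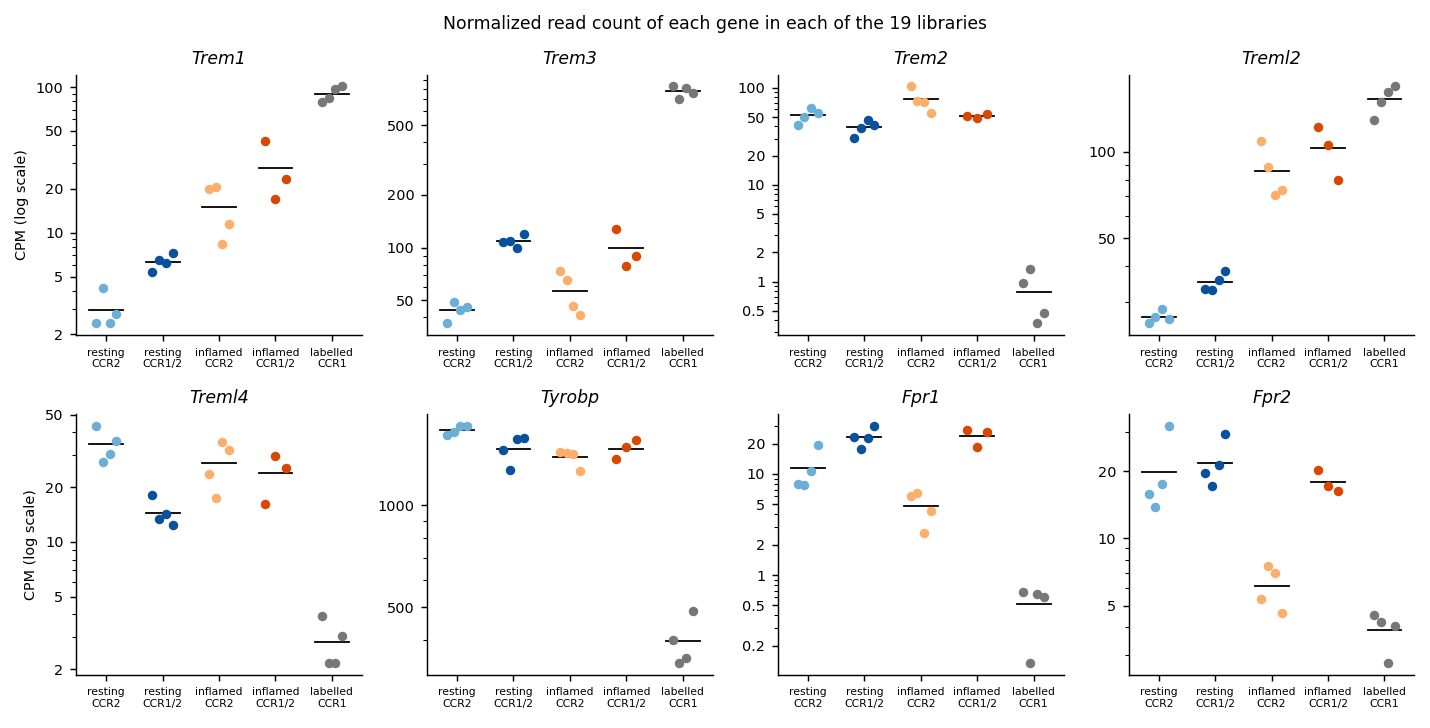
Normalized read counts (CPM, log scale) of the 8 genes in each of the 19 libraries, by group; each point is a library and each bar the mean of its group. The CCR1-labelled libraries are the highest for Trem1, Trem3 and Treml2 and the lowest for Trem2, Treml4, Tyrobp, Fpr1 and Fpr2.

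In the plot of levels by library, the members had calls in different comparisons. Trem3, the activating receptor that is functional in mice and a pseudogene in humans, was called, among the 4 monocyte groups, between the resting populations only. It was at 108, 109, 99.2 and 119 CPM in resting CCR1/2+ve cells and at 37.0, 48.9, 44.2 and 46.0 CPM in resting CCR2+ve cells. Every CCR1/2+ve library was above every CCR2+ve library, a log2 fold change of 1.38 (SE 0.10, adjusted p = 1.58e-05). In inflamed CCR1/2+ve cells it was at 128, 79.1 and 90.1 CPM and in inflamed CCR2+ve cells at 73.5, 65.1, 46.5 and 41.2 CPM. These groups did not overlap either, but the difference of 0.78 (SE 0.21, adjusted p = 0.269) did not pass the adjusted threshold. Over the alternatives its adjusted p ranged from 0.0115 to 0.658, and the log2 fold change stayed below the fold cutoff. Between inflamed and resting cells Trem3 had a log2 fold change of 0.29 in CCR2+ve cells (adjusted p = 0.164) and of −0.27 in CCR1/2+ve cells (adjusted p = 0.147), neither of which was called. Over the alternatives these ranged from 0.14 to 0.42 (adjusted p 0.0367 to 0.505) and from −0.48 to −0.14 (adjusted p 0.00436 to 0.527), below the fold cutoff.

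Trem1, which amplifies responses to microbial products, was called between the resting populations and with inflammation. Resting CCR2+ve cells had 2.41, 4.17, 2.38 and 2.74 CPM and resting CCR1/2+ve cells 5.38, 6.48, 6.15 and 7.3 CPM. The groups did not overlap, and the log2 fold change was 1.18 (SE 0.22, adjusted p = 0.00268). After the cytokine pump Trem1 was at 19.8, 20.7, 8.32 and 11.5 CPM in CCR2+ve cells and at 42.7, 16.9 and 23.2 CPM in CCR1/2+ve cells. All inflamed libraries thus lay above all resting ones, with a log2 fold change of 2.28 (SE 0.29, adjusted p = 1.03e-05) in CCR2+ve cells and of 1.99 (SE 0.26, adjusted p = 9.52e-05) in CCR1/2+ve cells. Between the inflamed populations the values overlapped, and the log2 fold change of 0.85 (SE 0.40, adjusted p = 0.588) was not called. A fit that blocks on the replicate number gave 1.01 there, with an adjusted p of 0.0188 (range over the alternatives 0.0188 to 0.922), although the numbers do not pair these libraries. Replicate 2 of the inflamed CCR1/2+ve cells was the highest of its group for Trem1, and without it the log2 fold change was 0.41.

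Treml2, a family member that does not pair with DAP12, was called with inflammation in both populations. It was at 25.4, 26.6, 28.4 and 26.3 CPM in resting CCR2+ve cells and at 109, 88.7, 70.5 and 73.8 CPM in inflamed ones. In CCR1/2+ve cells the resting libraries had 33.4, 33.2, 35.8 and 38.5 CPM and the inflamed libraries 122, 106 and 80.0 CPM. Neither pair of groups overlapped, and Treml2 rose by a log2 fold change of 1.61 (SE 0.13, adjusted p = 1.04e-07) and 1.41 (SE 0.13, adjusted p = 2.71e-06). In resting cells it was also higher in CCR1/2+ve than in CCR2+ve cells without overlap, by 0.48 (SE 0.08, adjusted p = 0.00166). This is past the adjusted p and below the fold cutoff. Over the alternatives the adjusted p ranged from 2.345e-07 to 0.0534, so Treml2 did not pass in all of them. No difference between the inflamed populations was called (log2 fold change 0.24, SE 0.17, adjusted p = 0.722).

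Treml4, a receptor that can sensitise endosomal Toll-like receptor signalling, ran against Trem1 and Trem3 in resting cells. It was at 18.1, 13.3, 14.2 and 12.4 CPM in resting CCR1/2+ve cells and at 43.5, 27.4, 30.3 and 36.0 CPM in resting CCR2+ve cells. The groups did not overlap, and the log2 fold change of Treml4 was −1.17 (SE 0.16, adjusted p = 0.000406). With inflammation it was at 16.2, 29.9 and 25.6 CPM in CCR1/2+ve cells and 23.5, 17.5, 35.6 and 31.9 CPM in CCR2+ve cells, where the populations overlapped (log2 fold change −0.20, SE 0.27, adjusted p = 0.872). The change with inflammation was 0.59 (SE 0.22, adjusted p = 0.0461) in CCR1/2+ve cells, below the fold cutoff, and −0.40 (SE 0.21, adjusted p = 0.127) in CCR2+ve cells. Over the alternatives these ranged from 0.40 to 0.81 (adjusted p 0.003 to 0.223) and from −0.56 to −0.20 (adjusted p 0.0423 to 0.457).

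Trem2, the lipid-binding receptor, was called in none of the 4 comparisons among the monocyte groups. It was at 30.1, 38.5, 46.3 and 41.0 CPM in resting CCR1/2+ve cells and at 41.7, 50.6, 61.8 and 55.3 CPM in resting CCR2+ve cells. The resting populations overlapped, with a log2 fold change of −0.35 (SE 0.13, adjusted p = 0.0891). There the replicate numbers pair the libraries, and CCR1/2+ve was below CCR2+ve in each of the 4 pairs; the blocked fit gave −0.35 with an adjusted p of 0.00154 (range over the alternatives 0.00154 to 0.253), past the adjusted threshold and short of the fold cutoff. With inflammation Trem2 was at 51.6, 49.4 and 53.3 CPM in CCR1/2+ve and at 104, 73.2, 71.7 and 55.5 CPM in CCR2+ve cells. Between inflamed and resting cells Trem2 had a log2 fold change of 0.47 (SE 0.16, adjusted p = 0.0286) in CCR2+ve cells, which was 0.28 without replicate 1 of the inflamed cells (adjusted p = 0.118; range over the alternatives 0.00532 to 0.118). In CCR1/2+ve cells it was 0.27 (SE 0.13, adjusted p = 0.102), and the inflamed populations, though they did not overlap, were not called different (log2 fold change −0.58, SE 0.18, adjusted p = 0.307).

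Tyrobp, the adaptor of the receptors that pair with DAP12, lay between 1265 and 1715 CPM in the 15 libraries of the 4 monocyte groups. At rest it was at 1615, 1639, 1715 and 1714 CPM in CCR2+ve cells and at 1455, 1266, 1565 and 1576 CPM in CCR1/2+ve cells, which did not overlap. With inflammation it was at 1433, 1422, 1420 and 1265 CPM in CCR2+ve cells and at 1371, 1480 and 1556 CPM in CCR1/2+ve cells, which did. The only change past the adjusted threshold among these 4 groups was that with inflammation in CCR2+ve cells, −0.34 (SE 0.09, adjusted p = 0.00376), which is below the fold cutoff. Its adjusted p ranged from 0.000479 to 0.0735 over the alternatives, so it did not pass in all of them. The differences of Tyrobp between populations were −0.11 (SE 0.08, adjusted p = 0.359) at rest and 0.07 (SE 0.10, adjusted p = 0.878) with inflammation.

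Fpr1, the high-affinity receptor for formylated peptides, differed between the populations in both states. It was at 22.9, 17.7, 22.7 and 30.0 CPM in resting CCR1/2+ve cells and at 7.92, 7.81, 10.7 and 19.3 CPM in resting CCR2+ve cells. Replicate 4 of the latter overlapped the CCR1/2+ve range, and the log2 fold change was 1.11 (SE 0.25, adjusted p = 0.00997). The size of this difference sits near the fold cutoff: it was 0.98 without replicate 4 of the CCR1/2+ve cells, and 0.98 and 0.97 without replicates 1 and 2 of the CCR2+ve cells, each just under the cutoff. Over all libraries left out in turn it ranged from 0.97 to 1.46. With inflammation Fpr1 was at 27.2, 18.6 and 26.0 CPM in CCR1/2+ve cells and 6.07, 6.42, 2.61 and 4.26 CPM in CCR2+ve cells, which did not overlap (log2 fold change 2.29, SE 0.27, adjusted p = 0.00506). In CCR2+ve cells inflammation changed Fpr1 by −1.30 (SE 0.31, adjusted p = 0.00248), which became −0.86 without replicate 4 of the resting cells, past the adjusted threshold (adjusted p = 0.0186; range over the alternatives 0.000275 to 0.0186) and under the fold cutoff. In CCR1/2+ve cells the log2 fold change was −0.08 (SE 0.17, adjusted p = 0.73), and its sign turned with all 19 libraries in 1 fit (0.04).

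Fpr2, the receptor of broader ligand range, parted the populations in inflamed cells. At rest it was at 19.5, 17.1, 21.2 and 29.4 CPM in CCR1/2+ve cells and 15.7, 13.8, 17.5 and 31.9 CPM in CCR2+ve cells, which overlapped (log2 fold change 0.23, SE 0.23, adjusted p = 0.582). With inflammation it was at 20.3, 17.1 and 16.2 CPM in CCR1/2+ve cells and at 5.36, 7.48, 7.02 and 4.65 CPM in CCR2+ve cells. Every inflamed CCR1/2+ve library was above every inflamed CCR2+ve library, a log2 fold change of 1.52 (SE 0.20, adjusted p = 0.00661). Inflammation changed Fpr2 in CCR2+ve cells by −1.75 (SE 0.24, adjusted p = 2.49e-05) without overlap, and in CCR1/2+ve cells the log2 fold change was −0.41 (SE 0.17, adjusted p = 0.064). Over the alternatives the latter ranged from −0.50 to −0.26 (adjusted p 0.0473 to 0.355), below the fold cutoff. Replicate 4 was the highest resting library for both Fpr1 and Fpr2 in either population.

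Whether inflammation acted differently in the populations was tested by the interaction of population and inflammation over 15 libraries, where a positive value means a higher change in CCR1/2+ve cells. With edgeR 0 of 8 members were called, against 0.241% of all genes tested higher and 0.155% lower, and 4 members had an unadjusted p below 0.05. Fpr2 came nearest, at 1.30 (SE 0.33, adjusted p = 0.0829), then Fpr1 at 1.17 (SE 0.40, adjusted p = 0.216), Treml4 at 0.95 (SE 0.33, adjusted p = 0.225) and Trem3 at −0.60 (SE 0.24, adjusted p = 0.287). DESeq2 called 1 member, Fpr2, at 1.36 with an adjusted p of 0.00852, and without replicate 2 of the resting CCR2+ve cells edgeR called it too, at 1.43 (adjusted p = 0.0386; range over the alternatives 0.00852 to 0.207). DESeq2 called more genes in this test, 371 higher and 163 lower of 18652, where edgeR called 45 and 29, or 156 and 66 with the replicate block. The fall of Fpr1 and Fpr2 in CCR2+ve cells was thus not shown by edgeR to differ from their course in CCR1/2+ve cells.

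**Figure D2:**
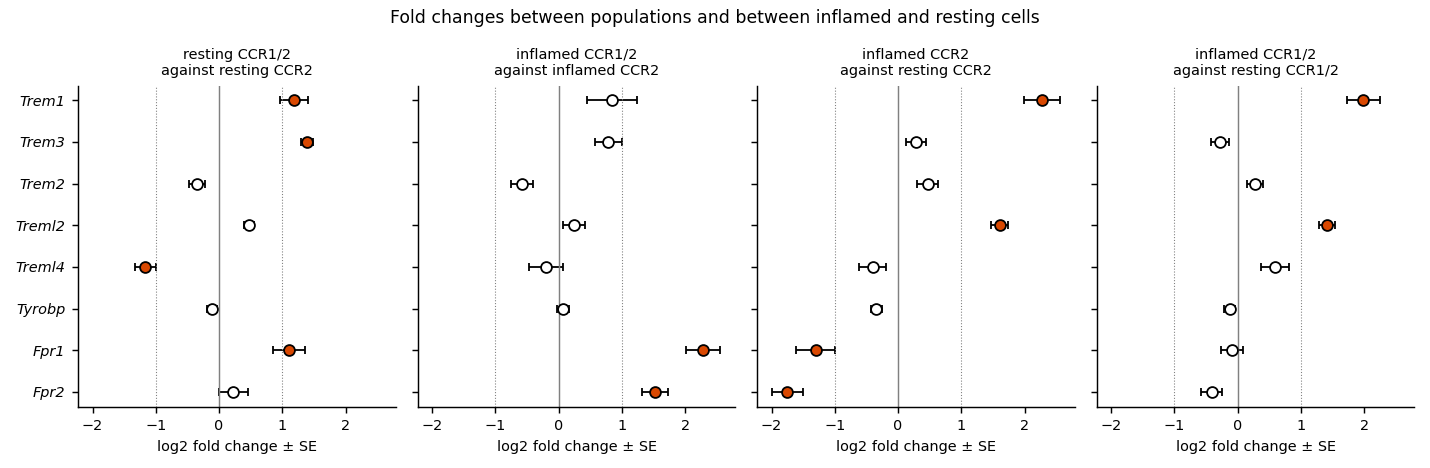
Log2 fold change (± SE) of the 8 genes in the 2 comparisons of populations and the 2 of inflamed with resting cells. Filled points were called, open points were not, and dotted lines mark the fold cutoff; Fpr1 lies at 2.29 and Fpr2 at 1.52 between inflamed populations, and Trem1 at 2.28 with inflammation in CCR2+ve cells.

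Counted together, 3 of 8 members were called higher in resting CCR1/2+ve than in resting CCR2+ve cells (Trem1, Trem3 and Fpr1), beside 2.34% of all genes tested, and 1 was called lower (Treml4), beside 1.9%. These shares are 437 and 355 genes, and they were 258 and 260 without replicate 4 of the resting CCR2+ve cells and 628 and 427 with the replicate block. Over the libraries left out in turn, the 3 members called higher became 2 at the least, through Fpr1. Trem1, Trem3 and Fpr1 stand in a list of neutrophil genes that the study drew from these same libraries, so their direction is not independent evidence. That list also marks Fpr1 as higher in inflamed CCR1/2+ve cells, so its call there, given next, is not independent evidence either. Between inflamed populations 2 of 8 were called higher in CCR1/2+ve cells (Fpr1 and Fpr2), beside 0.102% of all genes, and 0 lower, beside 0.0429%. Of 18652 genes these are 19 and 8, against 43 and 64 with DESeq2 and 35 and 45 with the block. The lower count was 2 without replicate 3 of the inflamed CCR1/2+ve cells and 23 without replicate 1 of the inflamed CCR2+ve cells. The groups of 4 members did not overlap there (Trem2, Trem3, Fpr1 and Fpr2), beside 9.71% of all genes, and 4 members had an unadjusted p below 0.05; DESeq2 also called 0 lower. With inflammation 2 members rose in CCR2+ve cells (Trem1 and Treml2), beside 9.37% of all genes, and 2 fell (Fpr1 and Fpr2), beside 19.2%. In CCR1/2+ve cells the same 2 rose, beside 9.16%, and 0 fell, beside 19.4%, with edgeR and with DESeq2, while 4 members had an unadjusted p below 0.05.

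Scaling bears on the comparisons with inflammation. The median log2 fold change of all 18652 genes was −0.10 in CCR2+ve and −0.25 in CCR1/2+ve cells (−0.03 and −0.12 with all 19 libraries in 1 fit). Relative to −0.10 and −0.25, Trem1 was at 2.38 and 2.24, Treml2 at 1.71 and 1.67, Fpr1 at −1.202 and 0.17, and Fpr2 at −1.65 and −0.16. Relative values for Tyrobp were −0.24 and 0.13, for Trem2 0.57 and 0.53, for Trem3 0.39 and −0.02, and for Treml4 −0.30 and 0.84.

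Levels can be set between genes only per length of exon. In CPM per kb, Tyrobp was the highest member in resting CCR2+ve cells, at 2505 ± 77.3, followed by Trem3 at 44.3 ± 5.1. Treml4 (17.2 ± 3.55 CPM per kb), Fpr2 (15.2 ± 6.38), Trem2 (10.6 ± 1.71), Fpr1 (8.64 ± 4.08) and Treml2 (5.43 ± 0.261) came next, each within 1 SD of its neighbour. Trem1 was the lowest, at 0.977 ± 0.283 CPM per kb. Resting CCR1/2+ve cells kept Tyrobp (2197 ± 216 CPM per kb), Trem3 (109.7 ± 8.24) and Trem1 (2.11 ± 0.265) in those places. Between them Fpr1 (17.6 ± 3.84 CPM per kb) and Fpr2 (16.8 ± 4.12) lay within 1 SD of each other, as did Trem2 (7.89 ± 1.37), Treml4 (7.26 ± 1.24) and Treml2 (7.16 ± 0.511) below them.

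With inflammation Tyrobp and Trem3 again led the order in both populations, at 2077 ± 120.3 and 57.0 ± 15.3 CPM per kb in CCR2+ve cells and at 2203 ± 139.6 and 99.6 ± 25.7 in CCR1/2+ve cells. In inflamed CCR2+ve cells Treml2 (17.4 ± 3.57 CPM per kb), Trem2 (15.4 ± 4.07) and Treml4 (13.6 ± 4.08) followed, each within 1 SD of the next, and Trem1 (5.03 ± 2.04), Fpr2 (4.73 ± 1.04) and Fpr1 (3.65 ± 1.33) were last and within 1 SD of their neighbours. In inflamed CCR1/2+ve cells Treml2 (20.9 ± 4.33 CPM per kb) and Fpr1 (18.1 ± 3.52) were within 1 SD of each other, and so were, lower down, Fpr2 (13.8 ± 1.64), Treml4 (12.0 ± 3.48), Trem2 (10.4 ± 0.397) and Trem1 (9.22 ± 4.47) with their neighbours. The CCR1-labelled libraries had another order, with Trem3 (782 ± 59.0 CPM per kb) above Tyrobp (595 ± 97.7), then Treml2 (30.9 ± 3.54) and Trem1 (30.1 ± 3.52) within 1 SD of each other. Below these came Fpr2 (3.005 ± 0.599 CPM per kb), Treml4 (1.42 ± 0.418), Fpr1 (0.392 ± 0.194) and Trem2 (0.159 ± 0.0924), each over 1 SD from the next. Dividing by the longest transcript in place of all exons moved 10 of 40 such levels by 1 SD or more, those of Treml2 in all 5 groups among them, from 17.4 to 21.5 CPM per kb in inflamed CCR2+ve cells.

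**Figure D3:**
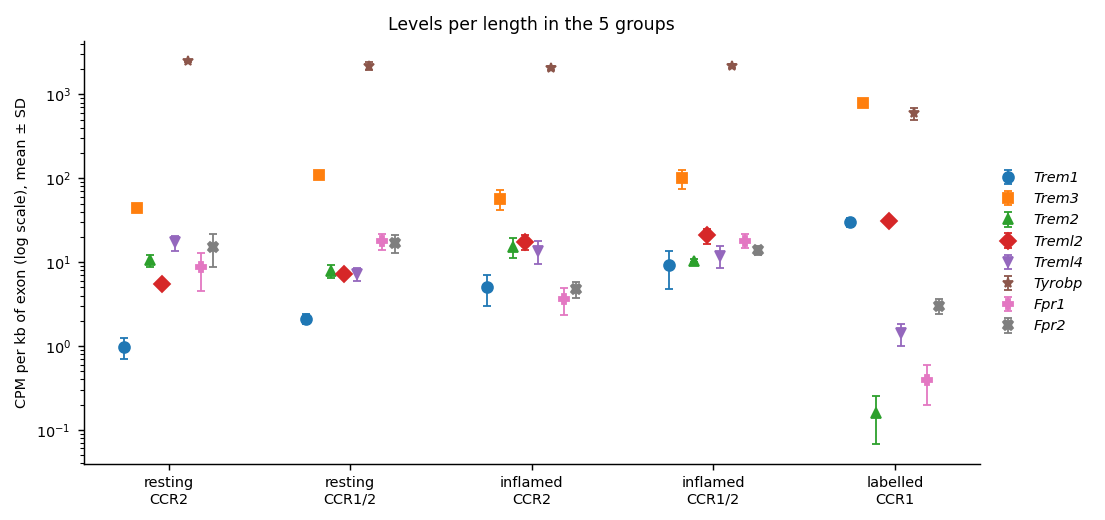
Levels in CPM per kb of exon (log scale, mean ± SD; n = 4 libraries, 3 for inflamed CCR1/2) of the 8 genes in the 5 groups. Tyrobp is the highest gene in the 4 monocyte groups, and Trem3 is above it in the CCR1-labelled libraries.

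The adaptor can also be set against Trem1, Trem2 and Trem3, which pair with it. Treml4 and other receptors that can use DAP12 are left out of this sum, so the ratios hold for these 3 receptors only. Per kb, Tyrobp was 45.3 ± 4.91 times the sum of Trem1, Trem2 and Trem3 in resting CCR2+ve cells (mean ± SD, n = 4) and 18.4 ± 2.17 times in resting CCR1/2+ve cells (n = 4). The ratio was 28.1 ± 6.25 in inflamed CCR2+ve (n = 4) and 19.4 ± 5.24 in inflamed CCR1/2+ve cells (n = 3). In the CCR1-labelled libraries it was 0.735 ± 0.126 (n = 4), the sum of the 3 receptors being above the adaptor. This ratio is of transcripts and was not tested.

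The CCR1-labelled libraries stood apart from both inflamed populations in every member. Trem3 was at 830.2, 702, 816 and 759 CPM and Trem1 at 79.2, 83.5, 97.1 and 101 CPM, above every other library of the series. Against inflamed CCR2+ve cells Trem3 rose by 3.79 (SE 0.16, adjusted p = 1.35e-11) and Trem1 by 2.59 (SE 0.24, adjusted p = 1.06e-06). Trem2 was at 0.955, 1.36, 0.37 and 0.471 CPM and Fpr1 at 0.682, 0.136, 0.647 and 0.612 CPM, and in the library with the least Fpr1 this was 3 reads. Both receptors were thus below every other library. Trem2 had a log2 fold change of −6.56 (SE 0.32, adjusted p = 1.15e-09), Treml4 of −3.26 (SE 0.26, adjusted p = 3.3e-08), Fpr1 of −3.20 (SE 0.40, adjusted p = 4.09e-06) and Tyrobp of −1.80 (SE 0.12, adjusted p = 9.87e-10). Treml4 was at 3.91, 2.17, 2.17 and 3.06 CPM and Tyrobp at 402, 344, 356 and 487 CPM. Treml2 was at 129, 149, 162 and 169 CPM and Fpr2 at 4.55, 4.21, 2.77 and 4.05 CPM. Fpr2 (log2 fold change −0.64, SE 0.23, adjusted p = 0.0315) and Treml2 (log2 fold change 0.84, SE 0.13, adjusted p = 5.21e-05) passed the adjusted threshold below the fold cutoff. For Fpr2 the adjusted p ranged from 0.0151 to 0.107 over the alternatives. In this comparison 2 of 8 members were called higher, beside 14.4% of all genes, and 4 lower, beside 16.8%.

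Set against inflamed CCR1/2+ve cells, the same libraries had 2 members called higher, beside 13.2% of all genes, and 5 lower, beside 14.6%. Trem3 was at 2.98 and Trem1 at 1.72 on the log2 scale (adjusted p = 4.27e-09 and 0.00123). The lower genes were Trem2 (−6.01), Fpr1 (−5.52), Treml4 (−3.08), Fpr2 (−2.19) and Tyrobp (−1.89), with adjusted p from 1.64e-08 to 1.32e-06. The groups did not overlap for any of the 8 members in either comparison, beside 45.3% of all genes against inflamed CCR2+ve and 47.4% against inflamed CCR1/2+ve cells. All 3 groups are labelled inflamed, and the sort of these cells is not described.

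**Figure D4:**
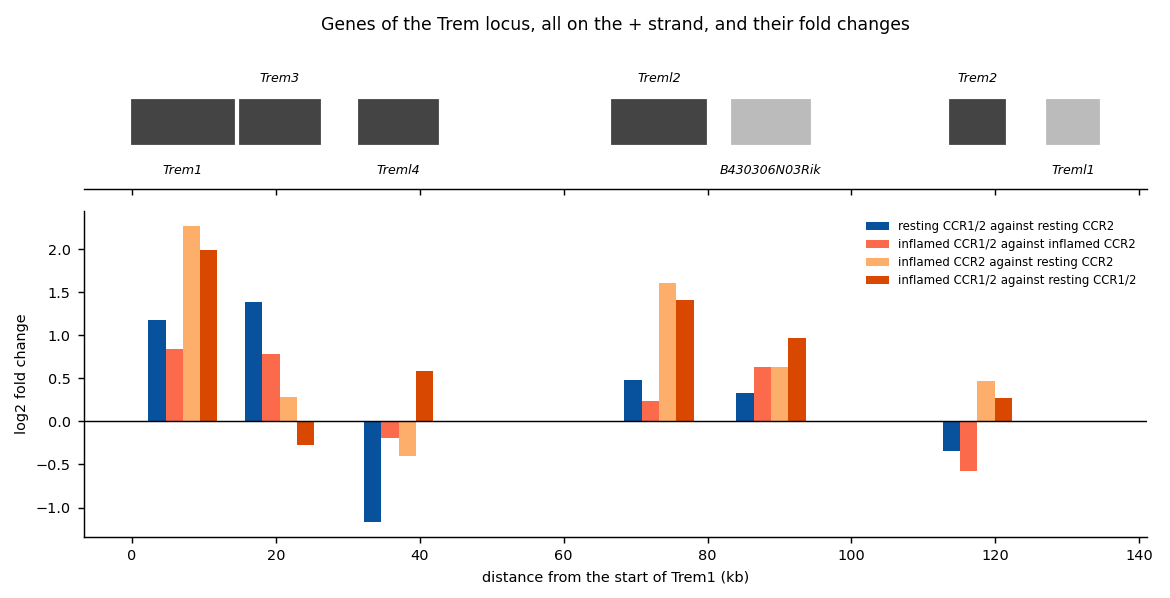
Genes of the Trem locus by distance (kb) from the start of Trem1, with members dark and other genes grey, above their log2 fold changes in 4 comparisons. Neighbours differ in direction: Trem3 is at 1.38 and Treml4 at −1.17 between resting populations; Treml1, with 40 reads in 19 libraries, has no bar.

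Along the locus, neighbours did not move as 1 block. Between resting populations Trem1 and Trem3 were higher and the next gene, Treml4, lower in CCR1/2+ve cells, and with inflammation Trem1 and Treml2 rose while Trem3 and Treml4 between them were not called. The plot of the locus also shows B430306N03Rik, which was picked for its place between Treml2 and Trem2, after its values were seen. Over the mean-centred log2 CPM of 19 libraries, the members with the closest profiles were Treml4 and Tyrobp, with a root mean square difference of 0.67, Trem1 was 0.89 from Treml2, and Fpr1 and Fpr2 were 1.26 apart. Over the 15 libraries without those labelled CCR1, the closest pair was Trem2 and Tyrobp, at 0.44, with Trem1 0.53 from Treml2 and Fpr1 0.56 from Fpr2.

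Among 11168 other genes with a mean of at least 1 CPM, the nearest profiles were, by the same root mean square difference over 19 libraries, Cd84 (0.11) and Sat1 (0.12) for Tyrobp and Dnmt1 (0.17) and Rtel1 (0.20) for Treml2. For Trem3 they were Hmgn2 (0.27) and Gatm (0.28), for Treml4 Ids (0.29) and Clec2i (0.33), and for Trem2 Ugt1a7c (0.36) and Pkib (0.37). Trem1 was nearest to Mmp25 (0.48) and Pold1 (0.61), Fpr2 to Serpinb10 (0.46) and Glipr1 (0.49), and Fpr1 to D930028M14Rik (0.79) and Aox3 (0.87). Without the CCR1-labelled libraries, over 15 libraries and 11035 genes, the nearest gene was Pglyrp1 (0.47) for Fpr1 and Pglyrp1 (0.39) for Fpr2, in both cases a gene of the ligand list described below. There the nearest were Polh (0.36) for Trem1, Cisd3 (0.16) for Trem2, Fignl1 (0.18) for Trem3, Pgk1 (0.12) for Treml2, Smpdl3b (0.24) for Treml4 and Sat1 (0.06) for Tyrobp. The genes near a member thus changed with the libraries used, except that Sat1 was among the nearest 2 of Tyrobp and Serpinb10 among the nearest 2 of Fpr2 in both. Ugt1a7c, Hmgn2, Glipr1 and Pgk1 share 53.7%, 25.4%, 18.98% and 53.9% of their 50-base stretches with other genes of the table, so their counts are uncertain.

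Relatives outside the set were at or near 0. Treml1, a receptor of platelets and the only one of 6 with enough reads for the test, had 40 reads over 19 libraries. It was called higher in inflamed than in resting CCR2+ve cells by edgeR, at 0.254 ± 0.195 against 0.0495 ± 0.0225 CPM, and not by DESeq2, and it was called in no other comparison among the 4 monocyte groups (unadjusted p below 0.05 in 0). Fpr3 had 1 read, and Fpr-rs3, Fpr-rs4, Fpr-rs6 and Fpr-rs7 had 0. Trem5 and Treml6 were not analysed here.

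A list meant to hold other receptors of DAP12 had calls both between resting populations and with inflammation. Whether each gene of it, Cd300ld included, pairs with DAP12 was not checked here. Of 10 tested, 3 were called lower and 0 higher in resting CCR1/2+ve against CCR2+ve cells, by edgeR and by DESeq2 (6 lower and 1 higher at an unadjusted p below 0.05), beside 1.9% and 2.34% of all genes, with a median log2 fold change of −0.67 beside 0.03 over all genes. Sirpb1a was at −1.26 and Cd300ld, an activating receptor of the CD300 family, at −1.24. With inflammation 7 were called higher and 2 lower in CCR1/2+ve cells (median 1.28 beside −0.25), beside 9.16% and 19.4% of all genes, and 2 higher and 2 lower in CCR2+ve cells (median 0.40 beside −0.10), beside 9.37% and 19.2%. Cd300ld rose by 2.31 and 1.199, Pilrb1 by 1.25 and 1.08, and in CCR1/2+ve cells Sirpb1c rose by 1.75 and Pilrb2 by 1.38. In CCR2+ve cells these 2 were at 0.96 and 0.93 (adjusted p = 3.66e-05 and 0.000102), just under the fold cutoff, and 6 of the list were higher and 2 lower at an unadjusted p below 0.05. The interaction was called for 0 of the 10 by edgeR and for 4, all positive, by DESeq2 (5 at an unadjusted p below 0.05), beside 0.241% positive and 0.155% negative of all genes by edgeR and 371 and 163 genes of 18652 by DESeq2. Klrk1, the NKG2D receptor of NK cells, changed by −1.28 and −1.59, and Siglech, a plasmacytoid dendritic cell receptor, was at 2.48 ± 0.836 CPM in resting and 0.177 ± 0.146 CPM in inflamed CCR2+ve cells, too few reads for a firm fold. Sirpb1a, Sirpb1c, Pilrb1 and Pilrb2 share 40.4%, 51.9%, 32.2% and 30.6% of their 50-base stretches with other annotated genes, and their counts are uncertain. The genes they share most with are of their own families. One is Sirpb1b, named after its values were seen, which rose by 1.31 with inflammation in CCR1/2+ve cells. Calls within a family, among the 7 higher there, may thus not be separate observations. Between inflamed populations edgeR and DESeq2 called 0 of 10, and 1 had an unadjusted p below 0.05 (median −0.05 beside −0.03). It was Clec5a, named after its values were seen, at 0.76 (SE 0.13, adjusted p = 0.0368), past the adjusted threshold and below the fold cutoff. At rest Clec5a was at 0.54 (SE 0.07, adjusted p = 0.000281). In the CCR1-labelled libraries 2 of the list were called higher and 6 lower against inflamed CCR2+ve cells (all genes 14.4% and 16.8%), and 1 higher and 6 lower against inflamed CCR1/2+ve cells (all genes 13.2% and 14.6%).

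Downstream of DAP12, edgeR and DESeq2 called 0 of 23 genes between populations, at rest or with inflammation. By edgeR 2.34% higher and 1.9% lower of all genes were called at rest and 0.102% and 0.0429% with inflammation. At an unadjusted p below 0.05, 12 were lower and 0 higher in resting CCR1/2+ve cells, and 3 lower and 1 higher in inflamed ones, with medians of −0.22 and −0.02 beside 0.03 and −0.03 over all genes. With inflammation 1 was called higher and 3 lower in CCR2+ve cells (median 0.02), and 3 higher and 3 lower in CCR1/2+ve cells (median 0.27), where DESeq2 called 3 higher and 2 lower. The shares of all genes were 9.37% higher and 19.2% lower in CCR2+ve and 9.16% and 19.4% in CCR1/2+ve cells. Card9, the adaptor that links Syk to NF-κB, rose from 10.3 ± 0.201 to 56.3 ± 4.87 CPM in CCR2+ve cells, a log2 fold change of 2.37 (SE 0.12, adjusted p = 3.48e-10), and by 2.04 (SE 0.15, adjusted p = 6.64e-07) in CCR1/2+ve cells. The Src family kinase Fgr rose by 1.57 (SE 0.10, adjusted p = 2.45e-07) in CCR1/2+ve cells and was at 0.79 (SE 0.12, adjusted p = 3.78e-05), under the fold cutoff, in CCR2+ve cells. The guanine nucleotide exchange factor Vav3 changed by −1.51 and −1.01, and Malt1, the protease that acts with Card9, by −1.25 and −1.11, in CCR2+ve and CCR1/2+ve cells. Against inflamed CCR2+ve cells the CCR1-labelled libraries had 0 of these genes called higher, by edgeR and by DESeq2, and 5 lower (3 and 12 at an unadjusted p below 0.05), beside 14.4% and 16.8% of all genes. Against inflamed CCR1/2+ve cells 1 was higher and 4 lower, beside 13.2% and 14.6%.

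Genes that act downstream of the formyl peptide receptors had 0 of 17 called between populations by edgeR and by DESeq2, at rest or with inflammation (medians −0.20 and −0.15). The shares of all genes were 2.34% higher and 1.9% lower at rest and 0.102% and 0.0429% with inflammation. At an unadjusted p below 0.05, 9 were lower and 0 higher in resting CCR1/2+ve cells, and 1 lower and 1 higher in inflamed ones. With inflammation 1 rose and 3 fell in CCR2+ve cells (median −0.16), and 1 rose and 4 fell in CCR1/2+ve cells (median −0.20), where DESeq2 called 1 higher and 3 lower. Of all genes, 9.37% rose and 19.2% fell in CCR2+ve and 9.16% rose and 19.4% fell in CCR1/2+ve cells. The gene that rose was Pik3r5, a subunit of PI3Kγ, by 1.01 (SE 0.14, adjusted p = 2.14e-05) and 1.15 (SE 0.22, adjusted p = 0.00168). Gnb2, a G protein β subunit, changed by −2.22 (SE 0.13, adjusted p = 2.81e-09) and −2.12 (SE 0.13, adjusted p = 1.08e-07). The arrestin Arrb2, which ends receptor signalling, changed by −1.204 and −1.03. In the CCR1-labelled libraries 4 were called higher and 4 lower against inflamed CCR2+ve cells, beside 14.4% and 16.8% of all genes, and 3 higher and 2 lower against inflamed CCR1/2+ve cells, beside 13.2% and 14.6%. Gng2 was not analysed here.

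**Figure D5:**
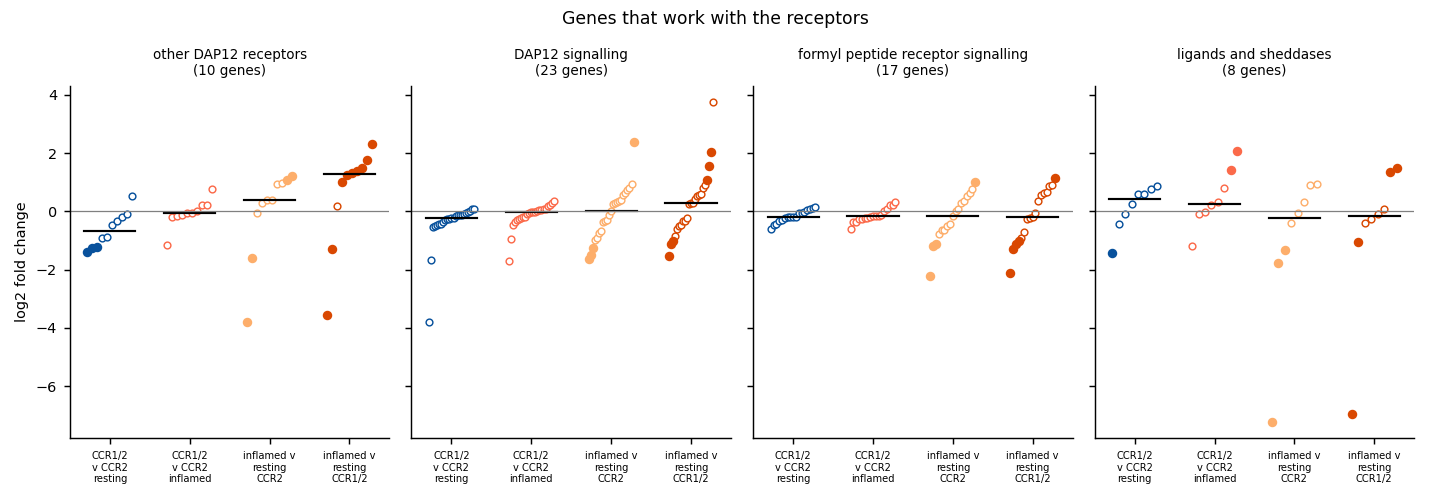
Log2 fold changes in 4 comparisons of the tested genes of 4 lists. The lists hold other receptors listed for DAP12, signalling below DAP12, signalling below the formyl peptide receptors, and ligands and sheddases. Filled points were called, open points were not, and bars are list medians. No point of the 2 signalling lists is filled between populations.

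Of 8 tested genes for ligands and sheddases, 2 were called higher between inflamed populations and 0 lower, beside 0.102% and 0.0429% of all genes. DESeq2 called 2 higher and 1 lower, and 4 were higher and 1 lower at an unadjusted p below 0.05. Pglyrp1, a peptidoglycan recognition protein that can engage TREM-1, was at 112 ± 20.2 CPM in inflamed CCR1/2+ve and 26.2 ± 1.99 CPM in inflamed CCR2+ve cells, a log2 fold change of 2.09 (SE 0.15, adjusted p = 6.87e-05). Camp, whose product is a ligand of the formyl peptide receptor 2 protein, was higher by 1.43 (SE 0.22, adjusted p = 0.0244), and it is also 1 of the 14 genes of the neutrophil list below. At rest 0 were called higher and 1 lower in CCR1/2+ve cells by edgeR and by DESeq2 (4 and 2 at an unadjusted p below 0.05), beside 2.34% and 1.9% of all genes, the lower one being Apoe, a ligand of TREM-2, at −1.43 (SE 0.22, adjusted p = 0.00124). With inflammation Apoe fell in CCR2+ve cells from 1561 ± 472 to 10.7 ± 3.19 CPM, a log2 fold change of −7.25 (SE 0.29, adjusted p = 4.01e-10), and of −6.96 (SE 0.28, adjusted p = 6.3e-08) in CCR1/2+ve cells. In all, 3 fell and 0 rose in CCR2+ve cells by edgeR and by DESeq2 (4 and 3 at an unadjusted p below 0.05), Pglyrp1 by −1.77 among them, and 2 rose and 2 fell in CCR1/2+ve cells, where DESeq2 called 2 higher and 1 lower. The shares of all genes higher and lower were 9.37% and 19.2% in CCR2+ve and 9.16% and 19.4% in CCR1/2+ve cells. Those that rose were Camp (1.48) and Adam17 (1.35), a protease that sheds TREM-2, which were at 0.89 and 0.94, under the fold cutoff, in CCR2+ve cells, and with Apoe fell Anxa1 (−1.07), a ligand of the formyl peptide receptors. The medians were 0.43 and 0.25 between populations, and −0.22 and −0.17 with inflammation. Against each inflamed population the CCR1-labelled libraries had 3 called higher and 3 lower, beside 14.4% and 16.8% of all genes for CCR2+ve and 13.2% and 14.6% for CCR1/2+ve cells. Clu was not analysed here.

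Markers of other cells moved with some of these differences. The 14 tested genes of the neutrophil list summed to 2635, 2793, 2728 and 3289 CPM in the resting CCR1/2+ve libraries and to 844, 944, 1146 and 1120 CPM in the resting CCR2+ve libraries. With inflammation they summed to 3740, 3049 and 3116 CPM in CCR1/2+ve and 2019, 2053, 1723 and 1762 CPM in CCR2+ve cells. The groups did not overlap in either state, and 5 of 14 were called higher at rest, beside 2.34% of all genes. With inflammation 2 were, beside 0.102%, and 6 with DESeq2 (9 at an unadjusted p below 0.05), and the most abundant gene over the series was Ngp. S100a8 and S100a9, named with the next 5 genes after their values were seen, together had 2095 ± 241 and 177 ± 61.5 CPM at rest, CCR1/2+ve cells first. In inflamed cells they had 530 ± 123 and 115 ± 66.3 CPM in the same order. The other 12 summed to 766 ± 163 and 837 ± 170 CPM at rest, where Lcn2 (94.9 and 21.3 CPM), Mmp9 (2.11 and 0.0773) and Cxcr2 (1.93 and 0.512) were called higher while Mmp8 (451 and 548) and Csf3r (169.8 and 222) had lower means, and to 2772 ± 308 and 1774 ± 109 CPM with inflammation. The defining marker Ly6g was at 0.49 ± 0.208 and 0.446 ± 0.0882 CPM at rest and at 1.08 ± 0.386 and 0.421 ± 0.134 CPM with inflammation. In inflamed cells its lowest CCR1/2+ve library (0.679 CPM) was above its highest CCR2+ve library (0.576 CPM). Stfa2l1 had 0 reads in resting cells and 9 and 3 reads in inflamed CCR1/2+ve and CCR2+ve cells. The 8 tested genes of the granulocyte and monocyte progenitor list, of which Elane was the most abundant, summed to 4195, 6821, 3517 and 3308 CPM in resting CCR1/2+ve and 770.4, 1659, 895 and 458 CPM in resting CCR2+ve libraries. After inflammation these sums were 1368, 957 and 961 CPM and 630.2, 611, 389.7 and 352 CPM. At rest 6 of 8 were called higher, beside 2.34% of all genes, and with inflammation 1, beside 0.102% (DESeq2 7 and 3; 8 and 4 at an unadjusted p below 0.05), and the part of these lists in the levels of Trem3, Trem1 and Fpr1 was not tested. A sort that excludes cells with Ly6G and SiglecF is described for the culture and single-cell samples of the study. The stains of the bulk sort stand in a supplement not read here. The authors reported no neutrophils in their single-cell data, which were not analysed here. Some genes of both lists were picked by the study from these libraries. Between inflamed and resting cells, 6 neutrophil genes were called higher and 0 lower in CCR2+ve cells, and 6 higher and 2 lower in CCR1/2+ve cells. Of the progenitor list, 4 were called lower and 0 higher in CCR2+ve cells, and 6 lower and 0 higher in CCR1/2+ve cells. The shares of all genes were 9.37% higher and 19.2% lower in CCR2+ve and 9.16% and 19.4% in CCR1/2+ve cells. The part of these lists in the changes of members with inflammation was not tested. In the CCR1-labelled libraries the sums were 134100, 105000, 126400 and 153600 CPM and 59660, 60770, 62060 and 55320 CPM.

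Other marker lists were read for the same reason. For their counts, the shares of all genes were 2.34% higher and 1.9% lower between resting populations, and 16.8% and 14.6% lower in the CCR1-labelled libraries. With inflammation they were 9.37% higher and 19.2% lower in CCR2+ve cells, and 9.16% higher and 19.4% lower in CCR1/2+ve cells. Classical monocyte genes (11 tested, most abundant Lyz2) summed to 37870 ± 5277 CPM in resting CCR1/2+ve, 49250 ± 2850 in resting CCR2+ve, 53690 ± 1929 in inflamed CCR1/2+ve and 52340 ± 4547 in inflamed CCR2+ve cells, but to 10480 ± 1934 in the CCR1-labelled libraries, where 9 were called lower against either inflamed population. Nonclassical monocyte genes (10 tested, most abundant Itgal) summed to 728, 576, 812 and 794 CPM in resting CCR1/2+ve and 1320, 1023, 1244 and 1482 CPM in resting CCR2+ve libraries, where 5 were called lower and 0 higher. Treml4 was lower in the same comparison, and the part of these genes in that was not tested. Dendritic cell genes (10 tested, most abundant H2-Ab1) summed to 213, 117, 101 and 138 CPM and 776, 345, 334 and 538 CPM in these groups, with 4 called lower. Against resting cells, 1 was called higher and 6 lower in inflamed CCR2+ve cells, and 1 higher and 4 lower in inflamed CCR1/2+ve cells. Tissue macrophage genes (12 tested, most abundant Adgre1) summed to 316, 232, 293 and 249 CPM and 396, 296, 403 and 425 CPM in resting CCR1/2+ve and CCR2+ve libraries, with 5 called higher and 1 lower in CCR1/2+ve cells, and to 668 ± 9.25 and 721 ± 99.1 CPM with inflammation. At rest Adgre1 alone was at 184 ± 30.9 and 314 ± 48.1 CPM, so most of each sum is this 1 gene. Vcam1 and Axl, named after their values were seen, were at 26.2 and 1.69 CPM and at 12.4 and 31.8 CPM there. Against resting cells, 5 of the list were called higher and 0 lower in inflamed CCR2+ve cells, and 3 higher and 5 lower in inflamed CCR1/2+ve cells. T and NK cell genes (7 tested, most abundant Nkg7) summed to 49.1 ± 23.6 and 11.7 ± 2.6 CPM at rest (1 called higher, 3 lower) and to 1563 ± 152 CPM in the CCR1-labelled libraries. Nkg7 alone was at 48.4 ± 23.7 and 8.33 ± 2.91 CPM at rest and at 1562 ± 152 CPM in the CCR1-labelled libraries, and the other 6 summed to 0.675 ± 0.107, 3.38 ± 0.36 and 1.19 ± 0.513 CPM. Erythroid genes (7 tested, most abundant Hbb-bs) were at 97.0 ± 54.9 and 155 ± 93.2 CPM at rest and at 2.18 ± 0.823 and 2.52 ± 1.21 CPM with inflammation, where 6 and 7 were called lower. B cell genes (7 tested, most abundant Cd79b) were called in 1 case at rest, as higher in CCR1/2+ve cells, and stayed between 20.7 ± 3.69 CPM in inflamed CCR1/2+ve and 39.4 ± 2.22 CPM in CCR1-labelled libraries. Osteoclast genes (5 tested, most abundant Acp5) reached at most 33.7 ± 2.997 CPM, in inflamed CCR2+ve cells. Megakaryocyte and platelet genes (6 tested, most abundant Itga2b) reached at most 4.49 ± 0.406 CPM, in the CCR1-labelled libraries. Ear2, Cebpe and Ctsg of these lists were not analysed here.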

How the data were processed

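Bulk RNA-seq of cells labelled as monocytes was read as a table of counts that the authors deposited; per their notes, paired-end reads were checked with fastp, aligned to GRCm38 with STAR 2.7.10a, kept when unique with at least 35 matched bases, and counted on Ensembl release 91 genes. The strand of the reads is not given. Of 20 count columns 19 were mapped to samples, and the column named as replicate 1 of inflamed CCR1/2 fits no sample record, so it was left aside. Everything after the counts was computed here.

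Genes with a mean below 1 read over the 19 libraries were dropped, which left 18652 of 50854. Comparisons were fitted one by one, on the libraries they name, by the quasi-likelihood F test of edgeR 4.0.16 (two-sided, robust, TMM factors; R 4.3.3) and adjusted by Benjamini-Hochberg over all genes tested. SE is the absolute log2 fold change over the square root of F. The interaction used all 15 libraries of the 4 monocyte groups and no fold cutoff. CPM used TMM factors over 19 libraries; profiles used log2 CPM with a prior count of 2. Positions, lengths and shared 50-base stretches came from GENCODE M21 (Python 3.11.15, pandas 2.3.3, numpy 2.4.6), and promoters from RefSeq.

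Whether replicate numbers pair the libraries was checked on the deviations of 7685 genes from their group means. Same-number correlations lay from 0.306 to 0.611 between the resting populations, above all others (−0.415 to 0.183), and from 0.134 to 0.247 between CCR1-labelled and inflamed CCR2+ve libraries (others −0.215 to 0.083), so the numbers pair those. They do not in the other 4 comparisons.

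The members, 5 pathway or family lists and 11 marker lists were chosen with earlier results of these data known. The genes named are the members, the 2 nearest profiles of each, up to 2 called genes per direction from each pathway list in the first 4 comparisons (those with the smallest p), the most abundant gene of each marker list and the defining markers; others are said to be chosen after their values were seen. Of the genes so named, 1 is not reported here. Alternatives were DESeq2 1.42.0, its size factors in edgeR, no filter, filterByExpr, all 19 libraries in 1 fit, blocking on the replicate number, calls without the fold cutoff, leaving out each library in turn, and the longest transcript as length. A filter and a fit over the 15 libraries not labelled CCR1, and profiles over them, were chosen after seeing the data. Single-cell and flow cytometry data of the study were not analysed here, nor were 7 list genes with no row.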

Additional observations from a re-analysis of the deposited data

Results flagged for a closer look

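In 2 of 32 groups of 4 libraries checked for the members, 1 library lay far from the others, and chance flags about 1 in 20 groups. Tyrobp in inflamed CCR2+ve cells was lowest in replicate 4, at 1265 CPM, with a gap to the next library of 0.918 of the group's range. Fpr1 in the CCR1-labelled libraries was lowest in replicate 2, at 0.136 CPM, with a gap of 0.872 of the range. The cause was not tested.

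Effects of inflammation that differed between CCR1/2+ve and CCR2+ve cells by the edgeR interaction test were found for 3 of the genes named. The interaction was 1.32 for Pglyrp1 (adjusted p = 0.0273), 0.83 for Ccr2 (adjusted p = 0.0478) and 0.80 for Adgre1 (adjusted p = 0.0497) on the log2 scale, a positive value being a higher change in CCR1/2+ve cells. Over all 18652 genes tested, 0.241% were called with a positive and 0.155% with a negative interaction, 45 and 29 genes. These counts moved when 1 library was left out. Without replicate 3 of the inflamed CCR1/2+ve cells edgeR called 0 genes, so the calls of Pglyrp1, Ccr2 and Adgre1 were lost, and without replicate 2 of the resting CCR1/2+ve cells it called 1 positive and 4 negative. Without replicate 2 of the resting CCR2+ve cells it called 128 and 81, and without replicate 4 of the inflamed CCR2+ve cells 170 and 83. DESeq2 called 371 and 163, and edgeR with the replicate block called 156 and 66. The cause was not tested.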

How the results depend on the processing

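Of 232 counts of members called under an alternative, 229 stayed within 1.5 times the count reported. Within that margin, the 3 members called higher between resting populations became 2 at the least with libraries left out in turn, through Fpr1. Lower genes with inflammation in CCR2+ve cells went from 2 to 1 without replicate 4 of the resting CCR2+ve cells, which took Fpr1 from −1.30 to −0.86; over the libraries left out the count ranged from 1 to 2. Positive interactions went from 0 to 1 with DESeq2 and without replicate 2 of the resting CCR2+ve cells, both times through Fpr2, and ranged from 0 to 1 over the libraries left out. The cause was not tested.

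Signs turned in 5 of 880 log2 fold changes, none of them called. Treml4 between inflamed populations went from −0.20 to 0.0229 without replicate 2 of the inflamed CCR1/2+ve cells, and over its libraries left out ranged down to −0.39. Tyrobp with inflammation in CCR1/2+ve cells went from −0.12 to 0.0038 with all 19 libraries in 1 fit. Fpr1 in that comparison went from −0.08 to 0.0386 with all 19 libraries in 1 fit, to 0.0331 without replicate 4 of the resting cells and to 0.0656 without replicate 3 of the inflamed cells, and its range reached −0.17. The cause was not tested.

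The replicate block took Trem1 between inflamed populations from 0.85 to 1.01 and past both thresholds (adjusted p = 0.0188; 0.0188 to 0.922 over the alternatives), where the numbers do not pair the libraries. Between resting populations, where they do, it gave Trem2 −0.35 (adjusted p = 0.00154) against −0.35 (adjusted p = 0.0891), a range of 0.00154 to 0.253 over the alternatives. It changed no other call of a member at both thresholds. Fpr1 between resting populations dropped below the fold cutoff without replicate 4 of the CCR1/2+ve cells or replicates 1 or 2 of the CCR2+ve cells, at 0.98, 0.98 and 0.97. Over the libraries left out its value reached 1.46 at most. The filter and the fit over the 15 libraries not labelled CCR1, chosen after seeing the data, turned no sign and no call of a member. Counts over all genes did move. With that fit, 24 genes were higher and 18 lower between inflamed populations, against 19 and 8. Between resting populations it gave 386 and 331, against 437 and 355. The filter took the interaction from 45 positive and 29 negative genes to 43 and 25. Per length, 10 of 40 levels moved by 1 SD or more with the longest transcript. With 3 or 4 libraries a group, and 3 reads of Fpr1 in the lowest library, a difference that was not called may still exist.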
